A study of Mus musculus with 24 samples.

Results

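The comparison was between 6 of the 24 RNA-seq libraries of the series, all from M2 bone marrow-derived macrophages (BMDMs) of DRD5-/- mice. In 3 of them, DRD5 KO M2 DA, the cells received dopamine (DA), and in the other 3, DRD5 KO M2, they did not. All libraries with these genotype, stimulus and treatment labels entered, so no measured value chose them. The cells came from 10-week-old C57BL/6 mice and were polarized with 10 ng/ml IL-4 and 10 ng/ml IL-13 for 12 h. DA was given at 20 µM. The untreated controls carried the same deletion and the same cytokines. The deletion was made with CRISPR-Cas9 and is present in the whole animal, and the marrow was grown in L929-conditioned medium. The labels name both bone and colon as the origin of the BMDMs, while the published methods name tibia and femur. For each group of 3 the labels do not say whether the libraries came from separate mice or cultures, so the p-values measure only the spread between these samples. The 6 M2 libraries from WT mice and the 6 M1 libraries from DRD5-/- mice, stimulated with 100 ng/ml LPS and 50 ng/ml IFN-γ, were used for comparison. The WT M2 libraries also entered the fit of the DRD5-/- effect, so the spread of each gene was estimated over all 12 M2 libraries.

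DA acts through 5 G protein-coupled receptors, of which DRD1 and DRD5 raise cAMP and DRD2, DRD3 and DRD4 lower it. It also oxidizes readily in culture medium, and it is a substrate of monoamine oxidase. Macrophages recycle iron from heme: heme is carried out of the phagolysosome by HRG1, split by heme oxygenase-1, and the iron leaves the cell through ferroportin. The genes for these steps and those for glutathione synthesis are targets of the transcription factor NRF2, and heme releases the same genes from the repressor BACH1.

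The targeted gene could not check the labels. Drd5 was listed at an FPKM (fragments scaled by transcript length and by the mapped total) of 0 in all 6 DRD5-/- M2 libraries, and also at 0 in 4 of the 6 WT M2 libraries, with 0.06 and 0.03 in the remaining libraries. Drd1 was between 0.09 and 0.23 in the DRD5-/- M2 libraries, Drd2 was at 0 in each of them, and Drd4 did not exceed 0.04. No dopamine receptor reached the filter for testing, which was an FPKM of at least 1 in 3 of the 12 M2 libraries.

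The cells carried macrophage markers. Csf1r had a mean FPKM of 892 without and 924 with DA, and Adgre1, which encodes F4/80, one of 420 and 422. None of 20 macrophage identity genes was called in either direction, beside 3.37% of all genes tested called higher and 0.652% called lower. After trends with transcript length and GC content were removed, 1 of the 20 was called higher. Of markers for lymphocytes (10 listed), erythroid cells and megakaryocytes (11 listed) and gut epithelium (9 listed), none reached the filter, and their summed FPKM per DRD5-/- library stayed between 0.08 and 1.4. All 11 fibroblast markers passed the filter, with a summed FPKM of 101 to 104 without and 107 to 111 with DA. None of the 11 was called, and the highest was Dcn, with a mean of 42.5 without and 49.4 with DA. In the WT M2 libraries the sum of the 11 was higher, at 152 to 156 without and 135 to 137 with DA. What fibroblasts contribute to the other results was not tested. In such bulk samples, fewer cells of a type and less RNA per cell cannot be told apart.

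M2 BMDMs without DRD5 differed between the libraries with and without DA by small steps, with more genes called higher than lower. Of 10735 genes tested on log2(FPKM + 1), 362 were higher (3.37%) and 70 were lower with DA (0.652%) (limma, Benjamini-Hochberg adjusted p below 0.001, fold of 1.2 or more). On the log2(FPKM + 1) scale only 3 of them changed by 2-fold or more, Hmox1, Slc40a1 and Gclm, all upward. That scale understates changes of low genes. In FPKM itself the DRD5-/- means of Edil3 (1.64 to 3.73) and Jag1 (0.86 to 1.88), for example, also rose by more than 2-fold. In WT M2 BMDMs the same test called 2782 genes higher (25.9%) and 2189 lower (20.4%), of which 626 changed by 2-fold or more on the log2(FPKM + 1) scale. The groups did not overlap for any of the 432 called genes in DRD5-/- cells, as against 4861 of the 10735 genes tested. With median-of-ratios scaling the split was 293 higher and 127 lower, and with the 6 DRD5-/- libraries fitted alone it was 244 and 52. After trends with transcript length and GC content were removed, 134 of the 362 and 22 of the 70 were called again.

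The strongest responses were in heme and iron handling. Hmox1 (gene 15368, chr8:75093621-75100589 in GRCm38) encodes heme oxygenase-1, which opens the heme ring to biliverdin, carbon monoxide and iron. Its FPKM was 241, 244 and 243 in the 3 untreated DRD5-/- libraries and 1957, 2009 and 2016 in the 3 with DA. The groups were far apart, with a ratio of means of 8.22, and the log2 fold change was 3.03 ± 0.02 (SE, n = 3 per group, adjusted p = 3.49e-19). In WT cells it was 198, 203 and 202 without and 2929, 2870 and 2914 with DA. The 2 genotypes did not overlap with DA, and the log2 effect was smaller without the receptor by 0.81 ± 0.03 (adjusted p of the difference = 1.31e-11).

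Slc40a1 (gene 53945, chr1:45908068-45926523) encodes ferroportin, the exporter of iron from the cell. Its FPKM was 4.21, 3.75 and 3.31 without DA and 13.2, 13.2 and 13.6 with DA in DRD5-/- cells. No value was shared between the groups, at a ratio of means of 3.55, and the log2 fold change was 1.59 ± 0.07 (adjusted p = 4.37e-09). In WT cells it was 1.24, and the difference of 0.35 ± 0.09 missed the threshold (adjusted p = 0.00389). Slc48a1 (gene 67739, chr15:97778520-97792692) encodes HRG1, the heme transporter of the phagolysosome. Its FPKM was 168, 170 and 163 without DA and 315, 315 and 309 with DA, a log2 fold change of 0.90 ± 0.02 (adjusted p = 1.12e-11). The WT libraries gave a like change of 0.99, and the difference between the genotypes was -0.09 ± 0.03 (adjusted p = 0.0271). The annotated Slc48a1 gene overlaps Hdac7 on the opposite strand, whose FPKM did not exceed 3.16 in the DRD5-/- libraries and was itself called higher. Slc11a1, the phagosomal exporter of divalent metal ions NRAMP1, rose by a log2 fold change of 0.32 ± 0.03 (adjusted p = 1.28e-05), from 43.0, 45.9 and 44.9 to 55.5, 54.3 and 57.4.

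These 4 were the members called among 36 tested genes of heme and iron metabolism (11.1%, beside 3.37% of all genes tested called higher). The median log2 fold change of the 36 was 0.04, beside 0.01 for all genes tested. The ferritin chains Fth1 and Ftl1, which store iron, had means of 18824 and 12289 without and 19744 and 12277 with DA and were not called. Tfrc, the transferrin receptor, was at 69.4 and 66.6, and Hmox2, the constitutive heme oxygenase, at 96.8 and 88.6, neither of them called. Spic, a transcription factor of red pulp macrophages that heme induces, was under the filter, with a mean of 0.40 without and 1.39 with DA in DRD5-/- cells.

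**Figure D1:**
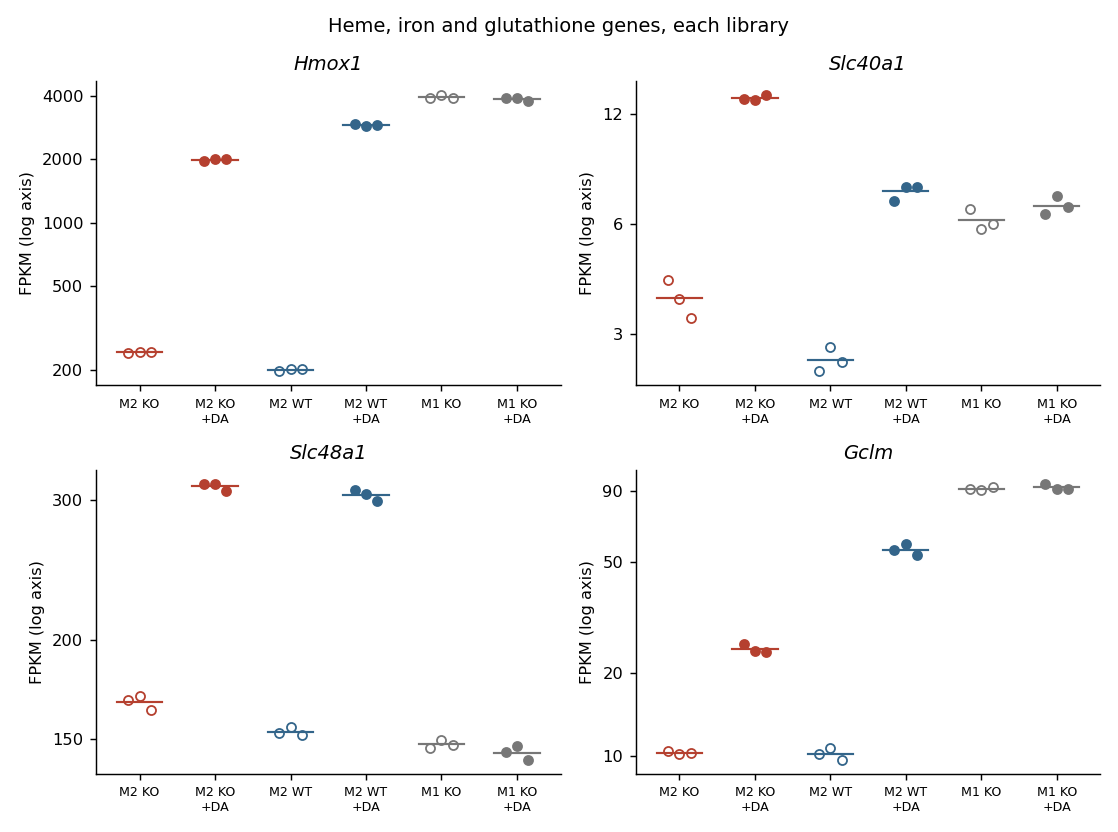
FPKM (log axis) of Hmox1, Slc40a1, Slc48a1 and Gclm in each library of M2 KO (DRD5-/-), M2 WT and M1 KO BMDMs, open circles without and filled circles with DA, with a bar at the group mean. In M2 KO cells all DA libraries lie above all untreated ones, as for Hmox1 with 1957 to 2016 against 241 to 244, while in M1 KO cells the groups with and without DA have like levels.

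Some genes of glutathione and NADPH metabolism were also called higher. Gclm (gene 14630, chr3:122245557-122270732), the modifier subunit of the enzyme that makes γ-glutamylcysteine, had an FPKM of 10.5, 10.2 and 10.3 without DA and of 25.3, 23.9 and 23.7 with DA. The DA libraries were 2.36 times higher on average and the log2 fold change was 1.16 ± 0.04 (adjusted p = 7.92e-10). In WT cells Gclm reached 54.9, 57.8 and 53.0 with DA, and the effect without the receptor was smaller by 1.17 ± 0.06 on the log2 scale (adjusted p = 5.33e-10). Gclc, the catalytic subunit of the same enzyme, rose from a mean of 12.2 to 16.7, a log2 fold change of 0.42. Cat, catalase, which breaks down hydrogen peroxide, rose from 108, 105 and 110 to 155, 155 and 159, a log2 fold change of 0.53 ± 0.02 (adjusted p = 1.12e-08). Catalase was a case where the genotypes differed in the other direction. The WT log2 fold change was -0.12, not called, and the difference was 0.65 ± 0.03 (adjusted p = 9.81e-10).

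Of 46 tested genes of the NRF2 and antioxidant list, 10 rose (21.7%, beside 3.37% of all genes tested), none fell and 36 were not called in DRD5-/- cells, with a median log2 fold change of 0.09. Beside Gclm, Gclc and Cat these were Abcc1, an exporter of glutathione conjugates (0.48), Me1 (0.47) and G6pdx (0.41), which make NADPH, Txnrd1 (0.34) and Gsr (0.34), which reduce thioredoxin and glutathione, Sqstm1, the autophagy receptor p62 (0.32), and Gstm1, a glutathione transferase (0.30). In WT cells 17 of the 46 rose and 11 fell, beside 25.9% and 20.4% of all genes. Cat, G6pdx, Gsr and Sqstm1 were not called in WT, and Gstm1 fell there, by 0.69 on the log2 scale. Several genes of the same list were not called without the receptor. Among them Nqo1 had a mean FPKM of 0.96 without and 1.07 with DA, Srxn1 33.0 and 35.3, Slc7a11 4.23 and 4.53, and Nfe2l2, which encodes NRF2 itself, 153 and 159. Members of the glutathione transferase family share sequence, so reads of Gstm1 may be split with its paralogs.

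The promoter sequences of RefSeq on GRCm38.p6 covered 8685 of the 10735 genes tested, and 8 of the 14 called members of the heme and antioxidant lists. Those without an entry were Hmox1, Slc40a1, Slc48a1, Gclc, Abcc1 and Gsr. The 250 bases before the start were searched on both strands for the antioxidant response element TGACNNNGC, the site of NRF2 with small MAF proteins. It was present in 12.2% of all tested promoters, in 14.7% of those of the genes called higher and in 10.7% of those called lower. Gclm and G6pdx held it among the 8, and their promoters are shown because these genes rose with DA. The match is in capitals and reads on the strand opposite to the gene in both, and it is a match of letters only. In Gclm, chr3:122245307-122245556 (plus strand), it begins 134 bases before the start. In G6pdx, chrX:74428881-74429130 (minus strand), it begins 57 bases before it. Among the other 58 members of these lists with an entry, 12 held it. G6pdx was chosen for display after its values were seen.
Gclm: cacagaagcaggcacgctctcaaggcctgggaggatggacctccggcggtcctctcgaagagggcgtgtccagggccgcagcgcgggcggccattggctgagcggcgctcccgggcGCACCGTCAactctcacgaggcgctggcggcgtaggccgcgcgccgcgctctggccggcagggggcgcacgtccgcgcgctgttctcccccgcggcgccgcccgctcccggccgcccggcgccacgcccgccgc
G6pdx: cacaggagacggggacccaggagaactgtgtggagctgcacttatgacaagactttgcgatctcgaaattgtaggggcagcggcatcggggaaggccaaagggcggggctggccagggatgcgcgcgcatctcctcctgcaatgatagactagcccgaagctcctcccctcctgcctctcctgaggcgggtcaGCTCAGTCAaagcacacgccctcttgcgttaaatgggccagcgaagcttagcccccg

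Of 45 tested interferon-induced genes, 23 were higher with DA in DRD5-/- cells (51.1%, beside 3.37% of all genes tested), none was lower and 22 were not called, with a median log2 fold change of 0.31 beside 0.01 for all genes tested. In WT cells 4 of the 45 were higher and 21 lower with DA, beside 25.9% and 20.4% of all genes, with a median of -0.23. The effect of DA was called higher in DRD5-/- than in WT cells for 30 of the 45 and lower for 1, Ifi35, as against 43.2% of all genes tested with a called difference in either direction. By direction, it was called higher for 2188 and lower for 2448 of all 10735 genes tested. The untreated DRD5-/- means of the 23 that rose lay between 1.26 and 50.7.

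Ifit2 (gene 15958) and Ifit3, which bind foreign RNA, had the largest changes. Ifit2 was at 2.11, 2.74 and 2.49 without and 5.11, 4.96 and 5.08 with DA in DRD5-/- cells, a log2 fold change of 0.82 ± 0.07 (adjusted p = 2.92e-06). In WT cells it went the other way, from 5.77, 5.44 and 6.39 to 4.25, 3.87 and 4.12, and the effects differed by 1.25 ± 0.10 (adjusted p = 5.32e-08). Ifit3 was at 3.71, 3.61 and 4.16 without and 6.27, 6.56 and 6.25 with DA in DRD5-/- cells. The WT values of Ifit3 fell from 8.20, 9.41 and 8.52 to 5.52, 5.55 and 5.82, and the difference was 1.16 ± 0.08 (adjusted p = 1.36e-08). Oas3, which makes the oligoadenylate messenger that activates RNase L, rose from 8.94, 8.11 and 8.78 to 12.8, 13.0 and 13.0 in DRD5-/- cells, and was not called in WT cells, where it stood at 16.7 to 17.6 without and 18.3 to 18.4 with DA. Ifi44 and the guanylate-binding protein gene Gbp2 rose by 0.55 and 0.51, with falls of 0.56 and 0.77 on the log2 scale in WT cells.

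The untreated levels of these genes also differed by genotype. The mean log2(FPKM + 1) of the 45 genes was between 3.56 and 3.58 in the untreated DRD5-/- libraries and between 4.16 and 4.19 in the untreated WT libraries. With DA it was between 3.85 and 3.86 in DRD5-/- and between 3.90 and 3.93 in WT libraries. The untreated DRD5-/- libraries were the lowest of the 4 groups and the untreated WT libraries the highest. Among the members that rose were the sensors Ifih1 (0.40), Ddx58 (0.31) and Dhx58 (0.28) and the transcription factors Irf7 (0.39) and Stat2 (0.35). Isg15 (0.22), Irf9 (0.15) and Ifitm3 (-0.10) were not called. The OAS, IFIT and GBP families hold near-identical copies, between which the counting of reads may have been uncertain.

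**Figure D2:**
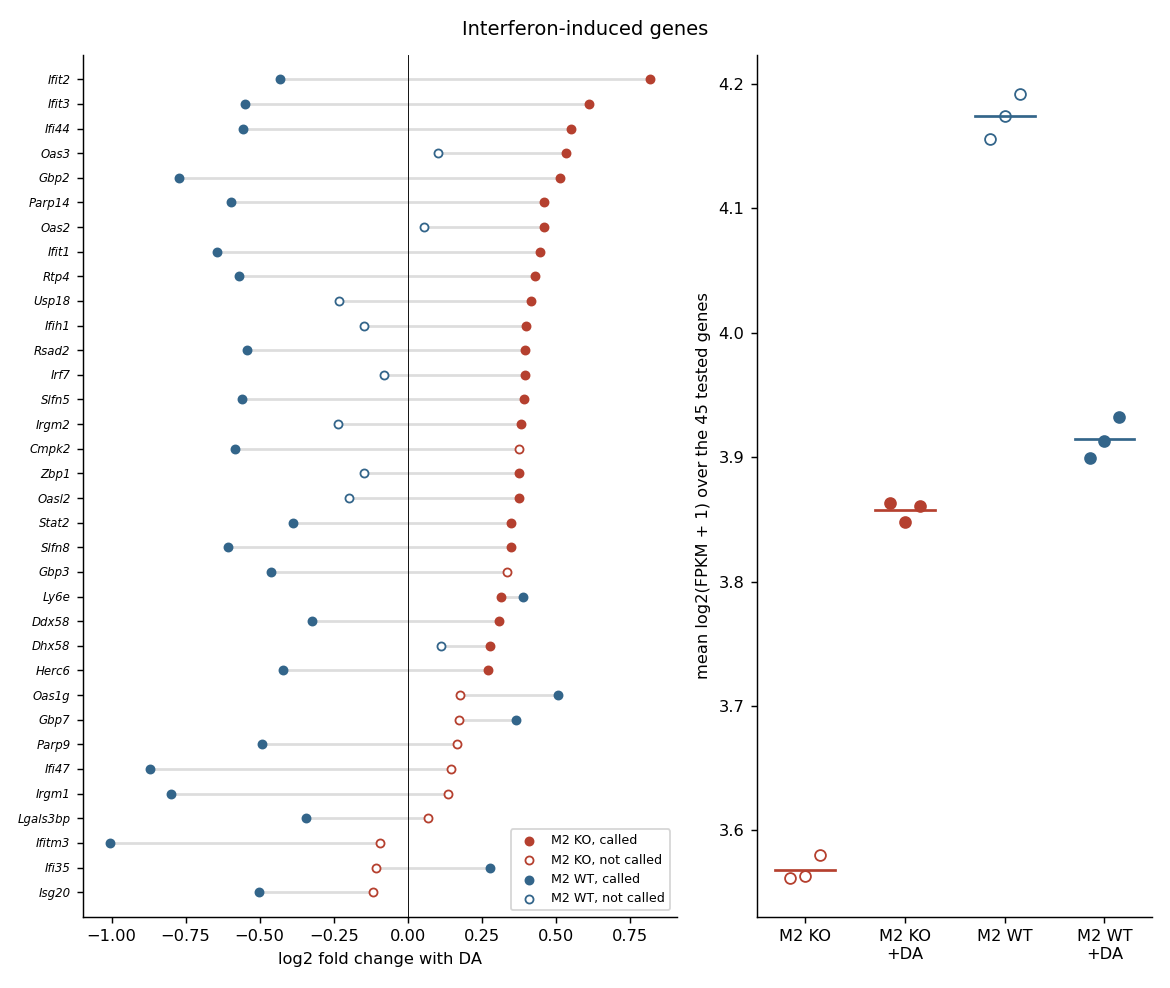
Left, log2 fold change with DA of the interferon-induced genes called in at least 1 genotype, in M2 KO (DRD5-/-) and M2 WT BMDMs, filled where called. Right, mean log2(FPKM + 1) of the 45 tested genes in each library, with a bar at the group mean. In M2 KO cells 23 genes are called higher, and the library means rise from 3.56 to 3.58 without DA to 3.85 to 3.86 with DA, while the WT means fall from 4.16 to 4.19 to 3.90 to 3.93.

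Promoters of 35 members of the interferon list had an entry. GAAANNGAA, the core of the interferon-stimulated response element bound by interferon-activated transcription factors, was searched after the changes had been seen. It was present in 10 of the 16 promoters of members called higher (62.5%) and in 10 of the 19 of the other members (52.6%), beside 6.32% of all tested promoters. The promoters of Ifit3, chr19:34583279-34583528 (plus strand), with 3 matches, and of Oas3, chr5:120777660-120777909 (minus strand), with 2 overlapping matches, are shown with the matches in capitals. Those of Ifit3 begin 155, 121 and 102 bases before the start, and those of Oas3 75 and 69 bases before it.
Ifit3: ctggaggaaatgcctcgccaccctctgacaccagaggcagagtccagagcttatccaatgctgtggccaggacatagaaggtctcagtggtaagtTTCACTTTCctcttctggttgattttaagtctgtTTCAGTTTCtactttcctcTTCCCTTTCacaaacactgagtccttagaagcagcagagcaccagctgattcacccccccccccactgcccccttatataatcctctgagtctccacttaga
Oas3: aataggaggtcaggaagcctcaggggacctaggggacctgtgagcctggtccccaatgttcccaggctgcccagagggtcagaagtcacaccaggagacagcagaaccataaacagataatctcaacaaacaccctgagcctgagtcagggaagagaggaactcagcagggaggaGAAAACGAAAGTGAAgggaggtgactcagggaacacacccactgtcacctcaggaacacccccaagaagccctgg

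Among the other large rises was Ednrb, the endothelin B receptor, which went from 3.13, 3.18 and 3.03 to 6.60, 6.31 and 6.99, a log2 fold change of 0.89 ± 0.06 (adjusted p = 6.64e-07). Edil3, an integrin ligand of apoptotic cell clearance, rose from 1.66, 1.62 and 1.65 to 3.84, 3.81 and 3.53, a log2 fold change of 0.84 ± 0.06. Jag1, a ligand of Notch, went from 0.82, 0.91 and 0.85 to 1.69, 1.84 and 2.11. None of the 3 genes had overlapping groups, and all were higher with DA in WT cells as well, by 0.59, 1.62 and 1.24 on the log2 scale.

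Ikbkg encodes NEMO, a subunit of the kinase that activates NF-κB. It rose from 6.20, 6.29 and 6.42 to 12.1, 11.5 and 12.1 (0.82 ± 0.04), but the annotated gene overlaps G6pdx on the opposite strand, so part of its reads may not be its own unless the counting used strand. Uprt (0.74 ± 0.09), Bbx (0.70 ± 0.05), Lmbrd2 (0.64 ± 0.05) and Mfap3l (0.64 ± 0.05) rose in DRD5-/- cells and were not called in WT cells. For these 4 the difference between the genotypes was called, at 0.66, 0.78, 0.83 and 0.53. Zfyve28 rose by 0.65 ± 0.04 without the receptor and fell by 0.81 on the log2 scale with it. Lmbrd2 overlaps Skp2 on the opposite strand. Another 2 predicted gene models rose by more than Ifit2 did and are not named here.

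Of 5 M2 genes that the study follows, Arg1 alone was called without the receptor. Arg1, arginase-1, which turns arginine into ornithine, was at 28.4, 29.3 and 27.8 without and 42.0, 41.6 and 37.9 with DA in DRD5-/- cells. The groups did not overlap, with a log2 fold change of 0.49 ± 0.04 (adjusted p = 9.49e-07). In WT cells it went from 28.5, 29.9 and 28.5 to 589, 600.1 and 586, and the log2 effect without the receptor was smaller by 3.82 ± 0.05 (adjusted p = 2.91e-15). Mrc1, the mannose receptor CD206, was at 251, 245 and 248 without and 295, 284 and 287 with DA. These groups did not overlap either (adjusted p = 2.19e-05), but the log2 fold change of 0.22 ± 0.02 was under the 1.2-fold limit. Chil3, which encodes Ym1 (0.11 ± 0.04, adjusted p = 0.031), Socs1 (0.05 ± 0.04, adjusted p = 0.326) and Il10 (0.11 ± 0.12, adjusted p = 0.506) were not called. The effect of DA was called smaller in DRD5-/- than in WT cells for all 5.

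Among 43 tested markers of alternative activation, 3 rose in DRD5-/- cells (6.98%, beside 3.37% of all genes tested). Another 1 fell, beside 0.652% of all genes tested, and the median log2 fold change was 0.05, beside 0.01. Pdcd1lg2, which encodes the checkpoint ligand PD-L2, rose from 10.6, 9.48 and 9.69 to 13.3, 13.1 and 13.0, while it fell in WT cells by 1.26 on the log2 scale. Igf1, a growth factor of repair macrophages, rose from 229, 220 and 223 to 288, 285 and 285 and was not called in WT. Igf1 lost its call after removal of the length and GC trends. Another member gained a call, so that 3 of the 43 were again higher and 1 lower. Ccl22, a chemokine for CCR4-bearing T cells, fell from 5.29, 4.95 and 5.23 to 3.21, 3.27 and 3.18, and in WT cells it fell from 6.64, 7.89 and 7.11 to 0.68, 0.78 and 0.71.

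Plau had the largest fall of a named gene. It encodes urokinase, the protease that activates plasminogen, and was at 26.5, 27.6 and 26.1 without and 16.3, 18.6 and 16.5 with DA, a log2 fold change of -0.61 ± 0.04 (adjusted p = 6.64e-07). In WT cells Plau went from 15.4, 16 and 16.7 to 168, 170 and 171. The signs were opposite, and the effects differed by -3.94 ± 0.06 (adjusted p = 1.46e-14). F2rl2, the protease-activated receptor PAR3, fell from 2.09, 1.97 and 2.34 to 0.98, 1.17 and 1.35 and rose in WT cells by 0.80. The annotated F2rl2 gene overlaps Iqgap2 on the opposite strand.

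Other falls shared their direction with WT cells. Tmem178, a regulator of calcium in osteoclast precursors, fell by 0.59 ± 0.08 on the log2 scale, Adipoq, the hormone adiponectin, by 0.58 ± 0.08, Mgll, the lipase of monoacylglycerols, by 0.41 ± 0.03, and Cd5l, a secreted macrophage protein also called AIM, by 0.38 ± 0.03. In WT cells the 4 fell further, by 2.26, 2.13, 1.56 and 1.28. In each case the difference was called. Adipoq was at 5.19, 5.74 and 4.91 without and 3.12, 3.28 and 3.20 with DA in DRD5-/- cells. Mgll went from 72.0, 70.7 and 70.7 to 52.7, 53.8 and 52.8, and Cd5l from 163, 166 and 161 to 123, 125 and 126, so the groups stood apart. Ung and Tcf19, genes of DNA repair and of cell cycle entry, fell by 0.47 and 0.41, while they rose in WT cells by 2.26 and 1.16. Tcf19 was near the threshold (adjusted p = 0.000967), and neither gene was called after removal of the length and GC trends.

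**Figure D3:**
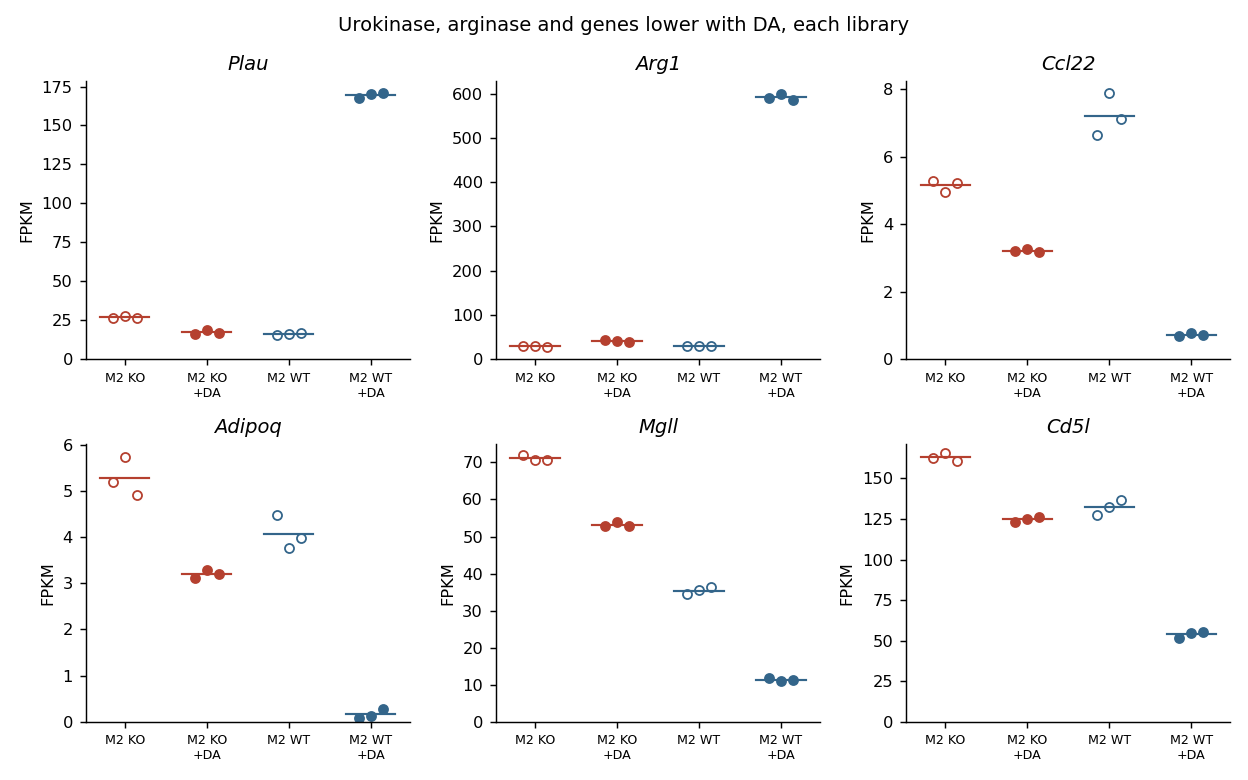
FPKM of Plau, Arg1, Ccl22, Adipoq, Mgll and Cd5l in each M2 library, open circles without and filled circles with DA, with a bar at the group mean. In M2 KO (DRD5-/-) cells 5 of the genes are lower with DA and Arg1 is slightly higher, and in WT cells Plau and Arg1 are far higher with DA, at 168 to 171 and 586 to 600.1.

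The change with DA in DRD5-/- cells followed the length and the base composition of transcripts. Over genes sorted by the length of the longest coding transcript, the median log2 fold change went from -0.13 in the shortest 10% (205 to 1271 bases) to 0.15 in the longest 10% (6530 bases and over). Of the 362 genes called higher, 169 were in that longest 10% and none of those called lower. Across the 10648 genes with an annotated length, the correlation of the effect with log2 length was 0.48 (Pearson) or 0.52 (Spearman, on length), and that with GC content was -0.32. These correlations are across genes measured in the same 6 libraries, and they are given as descriptions. In WT cells the correlation with log2 length was -0.06, and in M1 DRD5-/- cells it was 0.27.

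The libraries of the groups were apart in this trend. The slope of the deviation from the gene mean on log2 length was -0.031 to -0.014 in the 3 untreated DRD5-/- libraries and 0.048 to 0.065 in the 3 with DA (exact two-sided permutation test, p = 0.1, the smallest that 3 against 3 can give). The summed FPKM also differed between the groups, at 498900 to 503799 without and 482310 to 487772 with DA, as did the share of ribosomal protein genes, at 8.73% to 9.08% and 8.06% to 8.40%. Both exact tests gave p = 0.1. Short transcripts of the ribosome and of respiration were on the falling side. Of 82 tested ribosomal protein genes none was called, with a median log2 fold change of -0.17, and of 95 respiratory chain genes 3 fell, Atp5mpl, Atp5e and Cox5b, with a median of -0.19. After removal of the trend the medians were -0.05 and -0.07, and none of the 3 was called, while 2 other respiratory chain genes, Atp5g1 and Ndufab1, were then called lower. Of 293 zinc finger genes 8 rose, among them Zfp292, Zfp369 and Zfp217, a share of 2.73% beside 3.37% of all genes tested. Their median was 0.08, and 0.01 after removal of the trend, when none was called. The part that the trend plays in the changes of single genes was not tested.

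With each library's trend against GC content and length removed, 151 genes were higher (1.42%) and 67 were lower with DA (0.629%) of the 10648 annotated. Of the 362 genes called higher, 134 (37.0%) were called higher again, and of the 70 called lower, 22 (31.4%). None of the called genes named here changed its sign. The median length of the 134 was 3466 bases, beside 6092 for the 362 and 3069 for all genes tested. The correlation of the effect with GC content was then 0.13 and that with log2 length -0.03. The 4 heme and iron genes were called again, Hmox1 at 3.12, Slc40a1 at 1.52, Slc48a1 at 0.96 and Slc11a1 at 0.38. The 10 antioxidant genes were called again, with Pgd and Akr1b8 added. In the interferon list 19 were called higher, and the median of the 45 was 0.30. Ednrb, Edil3, Ikbkg, Jag1, Arg1 and Pdcd1lg2 were also called again, and so were Plau, Tmem178, Adipoq, Ccl22, F2rl2, Mgll and Cd5l among the falls. Among genes that were no longer called were Slc8a1, the sodium-calcium exchanger (0.62 before and 0.32 after), Igf1 (0.35 and 0.14), Rel (0.43 and 0.24), Abca1, the cholesterol exporter (0.28 and 0.10), and Ung (-0.47 and -0.39).

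**Figure D4:**
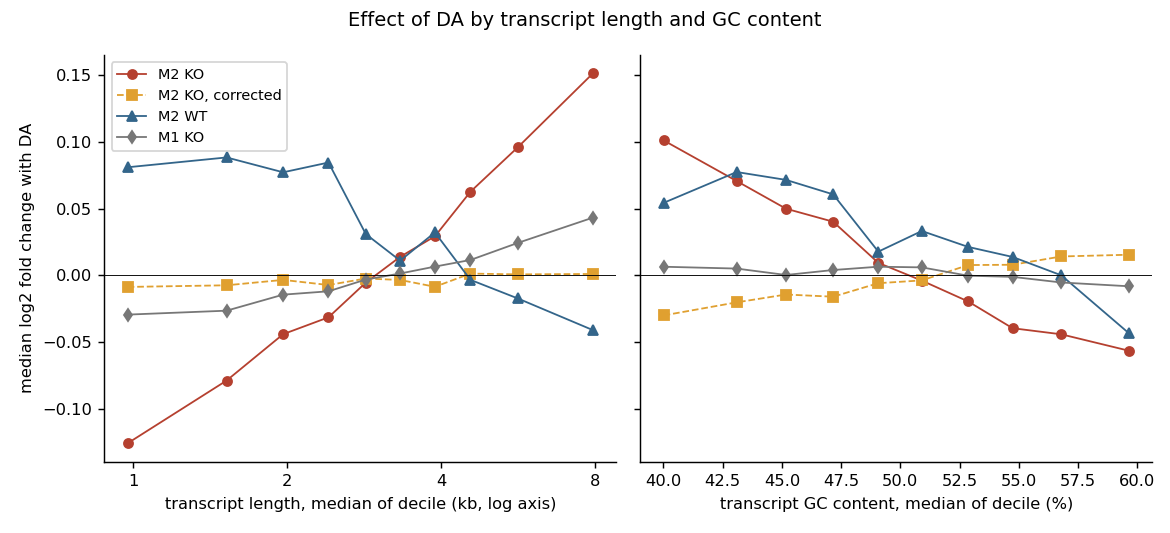
Median log2 fold change with DA in 10 groups of genes of rising transcript length (left, log axis) and GC content (right), for M2 KO (DRD5-/-), the same after removal of the trends, M2 WT and M1 KO. In M2 KO the medians rise with length from -0.13 to 0.15, and after removal of the trends they lie near 0.

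Compared with WT cells, the genes called without DRD5 split in both directions. The WT and DRD5-/- comparisons share no library, but both came from 1 fit with the same gene filter and 1 estimate of spread per gene. Of the 362 genes higher in DRD5-/- cells, 77 were also higher in WT (21.3% of the DRD5-/- list and 2.77% of the WT list), 128 were lower in WT and 157 were not called. Of the 70 genes lower in DRD5-/- cells, 21 were also lower in WT (30% of that list and 0.959% of the WT list), 29 were higher and 20 were not called. In all, 98 genes had the same and 157 the opposite direction. These shares stand beside the 25.9% higher and 20.4% lower of all genes in WT. Of the 77 higher in both, the difference between the effects was called for 33. The 10 with the largest change in both genotypes were Hmox1, Slc40a1, Gclm, Slc48a1, Ednrb, Edil3, Ikbkg, Jag1, Ankrd28 and Ccr3. Ccr3, the eotaxin receptor, rose from 5.64, 5.51 and 5.86 to 8.67, 9.70 and 8.95 without the receptor. It is also a marker of eosinophils, of which Siglecf had a mean of 1.65 without and 1.39 with DA and Prg2 was at 0 in all 3 DRD5-/- libraries with DA.

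**Figure D5:**
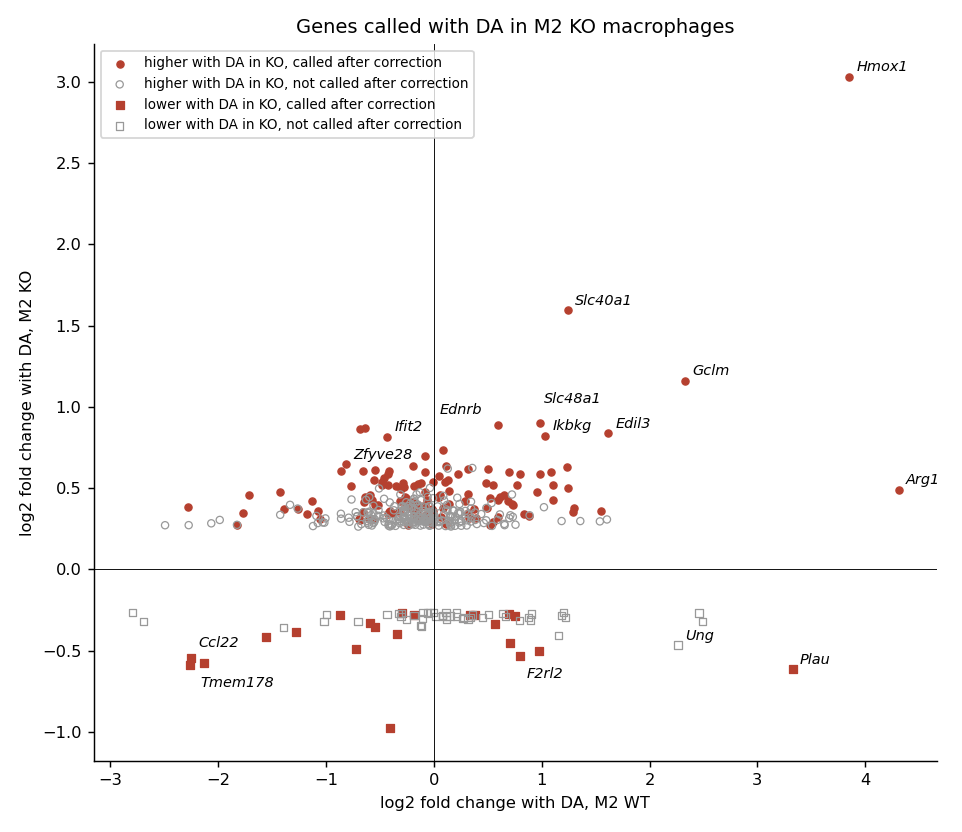
Log2 fold change with DA in M2 KO (DRD5-/-) against that in M2 WT for the 432 genes called in M2 KO, filled where also called after removal of the length and GC trends. Hmox1, Slc40a1, Gclm and Slc48a1 lie at the upper right and Plau at the lower right. All of the other points lie within 1 log2 unit of 0 on the M2 KO axis.

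In M1 DRD5-/- BMDMs, whose table was fitted on its own, no gene of 10040 passed the threshold with DA (0%). None passed at an adjusted p under 0.05 with 1.2-fold either, and 569 had an unadjusted p under 0.05 in limma. Hmox1 was already at 3891, 4048 and 3910 without DA and at 3904, 3921 and 3793 with DA, and Gclm was at 91.0, 90.7 and 92.7 and at 95.3, 91.2 and 91.2, so the groups overlapped. Slc40a1 was at 6.62, 5.82 and 5.99 and at 6.39, 7.18 and 6.67. The median M1 log2 fold change was 0.04 for the genes called higher in M2 DRD5-/- cells and -0.01 for the interferon list. Of the 346 of the 362 that were tested in M1, 262 (75.7%) had a positive value there, and 59.4% of all genes tested in both had the same sign in both. After removal of the trends in both tables the shares were 61.4% and 54.4%.

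The next lists are given with their counts in both genotypes, beside 25.9% of all genes higher and 20.4% lower in WT cells and 3.37% and 0.652% in DRD5-/- cells. Of 31 tested genes of the integrated stress response, 25 rose in WT cells and none in DRD5-/- cells, where Phgdh, the entry enzyme of serine synthesis, fell from a mean of 7.65 to 5.92. Of 50 replication and mitosis genes, 33 rose in WT and none in DRD5-/- cells, where Stmn1 and Mcm5 fell by 0.30 and 0.27. Of 25 sterol synthesis genes, 17 rose in WT and none was called in DRD5-/- cells, and of 28 heat shock genes 16 rose in WT and none was called. Of 51 lysosomal genes, 35 fell in WT, while in DRD5-/- cells 2 rose, Ctsc and Mitf (3.92%). After removal of the trends none of Phgdh, Stmn1, Mcm5, Ctsc and Mitf was called, and Atf5 and Cebpb of the integrated stress response were called higher.

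DRD5 signals through cAMP. Of 36 genes of the cAMP and PKA pathway, 3 rose (8.33%, beside 3.37% of all genes tested), Arrb1, the scaffold β-arrestin 1 (0.44), Akap13 (0.33) and Ep300 (0.31), and after removal of the trends Arrb1 alone was called. Of 24 CREB target genes only Arg1 was called (4.17%), and their median log2 fold change was 0.12, beside 0.01 for all genes tested. After removal of the trends Cebpb was called higher as well. Of 15 genes that make, carry or break down dopamine none was called. Maoa, a monoamine oxidase, had a mean of 4.75 without and 5.18 with DA. Of the 5 tested genes for other amine and sigma receptors, Adra1a, the α1A-adrenergic receptor, rose from 1.86, 2.15 and 2.40 to 2.94, 3.23 and 3.08 (0.38 ± 0.07, adjusted p = 0.000952), and was not called after removal of the trends. Of 57 NF-κB response genes 3 rose (5.26%, beside 3.37% of all genes tested) and 2 fell, beside 0.652% of all genes tested. Clec4e, the receptor Mincle, rose by 0.55 and Bcl2a1b fell by 0.30, and the latter belongs to a family of near-identical copies. Clec4e and Sqstm1 were called again after removal of the trends, and Rel, Bcl2a1b and Cd83 were not.

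The remaining lists are given beside 3.37% of all genes tested called higher and 0.652% called lower in DRD5-/- cells. Of 78 mitochondrial ribosomal proteins 3 fell, Mrps6, Mrps18a and Mrpl41, and of 46 proteasome subunits 1, Psmb3. Most members of both lists had negative values, 72 of the 78 and 39 of the 46. Their median log2 fold changes were -0.14 and -0.11, and -0.08 and -0.06 with the trends removed. Of 38 genes of lipid metabolism Abca1 rose and Nr1h3 and Fabp5 fell, of 30 of plasminogen activation and matrix Serpinb2 and Mmp13 rose and Plau fell, and of 25 chemokines and their receptors Ccr3 rose and Ccl22 fell. Hif1a, Slc16a3 and Zfp292 rose among 40 genes of glycolysis and hypoxia, Slc30a4 among 20 of metal transport, Ern1 among 28 of the unfolded protein response, Gbp2 among 12 of classical activation and Hist1h1c among 23 histone genes. None was called among 22 genes of antigen presentation, 26 immediate early genes, 35 splicing factors and the 2 tested markers each of neutrophils and dendritic cells. After removal of the trends Serpinb2, Plau, Ccr3, Ccl22, Slc16a3, Gbp2 and Hist1h1c of these genes were called again, and the others were not. Mrpl17 and Ccr1 were then called lower in addition.

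Of the other motifs, the cAMP response element TGACGTCA was in 1.08% of the promoters of genes called higher and in 2.83% of all tested, and its shorter form TGACG in 20.1% and 28.3%. The AP-1 site TGANTCA was in 8.24% and 4.16%. TGACG was in 19.6% of the promoters of genes called lower. Among the 98 genes with an entry that were called higher in both fits, the antioxidant response element was in 18.4% and the AP-1 site in 11.2%. Among the 19 called lower in both fits these shares were 15.8% and 10.5%. The other motifs are given for genes called higher and for all tested. These were the STAT site (5.02% and 4.67%), the E-box CACGTG (7.17% and 8.83%) and the NF-κB site GGGANNNCC (19.0% and 19.98%). The rest were the heat shock element GAANNTTC (5.38% and 4.88%), the metal response element TGCNCNC (51.3% and 52.1%) and the TATA box TATAAA (8.24% and 6.02%). In the same order, the shares in the 98 genes were 8.16%, 3.06%, 18.4%, 6.12%, 46.9% and 8.16%. The AP-1 site and the antioxidant response element share letters and can overlap. The shares are descriptions, and no test was made of them.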

How the data were processed

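RNA of 24 BMDM libraries was sequenced on BGISEQ-500, and the authors deposited FPKM values per gene and library. The labels' processing notes name Bowtie2 2.2.5 and GRCm38.p6, the published methods HISAT2 and an earlier patch. Whether counting used strand is not given in the sources used here. FPKM holds no read totals, so the absolute depth is unknown, and a low FPKM is imprecise. Genes with FPKM of at least 1 in 3 of the 12 M2 libraries were tested on log2(FPKM + 1), which understates changes of low genes, with limma 3.58.1 in R 4.3.3 (4 groups of 3, intensity trend, Benjamini-Hochberg). Adjusted p below 0.001 with 1.2-fold was called. GC and length trends were removed per library by lowess (span 0.3). Named genes were the 15 largest rises and 15 largest falls, the 10 and 5 largest shared and opposite changes with WT, the study's M2 genes and up to 4 called members per list, and genes outside this rule were named after their values were seen. Members and lists were chosen with earlier results of these data known. Residual correlations between libraries of the same replicate number were small (r of 0.034 to 0.080 in DRD5-/- and -0.096 to -0.008 in WT). With 3 libraries per group they cannot settle whether the libraries were paired. Gene models were left unnamed, and some results are not reported here. The scripts were tested on simulated data. Alternatives were other scalings, filters, pseudocounts, thresholds, a block and left-out libraries.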

Additional observations from a re-analysis of the deposited data

Results flagged for a closer look

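The effect of DA differed between DRD5-/- and WT M2 BMDMs by the limma test of the difference for genes called in opposite directions. For Plau the difference was -3.94 on the log2 scale (adjusted p = 1.46e-14), for Zfyve28 1.46 (adjusted p = 1.24e-10), for Gvin1 1.47 (adjusted p = 5.03e-11), for Ifi209 1.26 (adjusted p = 1.19e-08) and for Ifi44 1.11 (adjusted p = 2.39e-08). Of the 432 genes called in DRD5-/- cells, 157 were called in the opposite direction in WT, where 25.9% of all genes were higher and 20.4% lower. The effect of DA was called higher in DRD5-/- than in WT cells for 30 of 45 tested interferon-induced genes, beside 2188 of all 10735 genes tested. Groups of 3 libraries were not searched for single libraries that stood apart.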

How the results depend on the processing

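Each count was recomputed with 1 choice changed. Of 362 genes higher with DA, the number was 151 with GC and length trends removed and 3 at 2-fold, and in fits added after seeing the data 163 with length alone and 239 with GC alone removed. Of 70 lower, it was 36 without a filter, 127 with median-of-ratios scaling, 43 without the intensity trend, 179 at adjusted p below 0.05 and 0 at 2-fold. Higher in both genotypes were 46 with both trends removed, 48 with length alone removed, 124 at adjusted p below 0.05 and 3 at 2-fold, beside 77. Lower in both were 49 and 0 at the last settings, beside 21. At 2-fold the difference between genotypes was called for 750 genes, and 2 heme and iron, 1 antioxidant and 0 interferon genes were called.

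With 1 library left out, 263 to 356 were higher and 41 to 79 lower. The lower count was 42 or 43 without untreated DRD5-/- library 2 or 3, and 41 without DA library 1 or 3. The difference was called for 4296 to 4501 genes, higher in both were 65 to 80 and lower in both 14 to 23. Lower in both was 14 without untreated DRD5-/- library 2. Of the lists, 4 to 4 heme and iron, 9 to 11 antioxidant and 18 to 24 interferon genes were higher.

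Fitting the 6 DRD5-/- libraries alone gave 244 higher and 52 lower, and 16 named genes lost their call. With the replicate block, 315 were higher and 58 lower, and with the block and both trends removed 130 were higher, 40 of them in both genotypes. With the thresholds kept, 24 settings were run. No called named gene changed sign in those that gave it a value, and 37 of these 78 genes lost their call in none of them. The filter at FPKM 5 left some low genes, such as Jag1 and Ifi44, without a value. Phgdh lost its call in 19 settings, and Tcf19 and Mrpl41 in 18. Absolute depth is unknown, so its limits could not be computed. Relative depth was estimated from the steps between low FPKM values of 10 to 17 genes per DRD5-/- library. It was 0.965 to 1 with DA and 0.98 to 1 without (exact two-sided permutation test, p = 0.7).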
